A study of Mus musculus with 3 samples.

Results

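The genes of purine and pyrimidine nucleotide synthesis were examined in follicular regulatory T (Tfr) cells with and without Rptor, whose product raptor is the scaffold of mTORC1, a kinase complex that senses nutrients. The list held 35 genes chosen by function, and a gene was measured by the probe sets annotated to its symbol alone. Of the 35, 34 had such a probe set, 79 probe sets in all among 45101 on the array, and 33 lay above the filter on low values and were tested among 12725 genes. Impdh2 was not analysed here. The 4 probe sets that name Tyms alone, the gene of thymidylate synthase, read between 9.55 and 23.7 intensity units on all arrays, below the filter level of 34.8, so Tyms has no test. The genes were grouped as de novo purine (12 listed, 11 tested), de novo pyrimidine (5 and 5), deoxynucleotide, which here includes the monophosphate and diphosphate kinases (11 and 10), and salvage (7 and 7).

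Splenic lymphocytes were taken from C57BL/6 mice 8 days after an ovalbumin (OVA) immunization, and Tfr cells were sorted after lineage depletion and staining for CXCR5, CD25, GITR, CD44 and CD4. The WT group was 1 array of RNA pooled from 4 wild-type mice. The Rptor-null group was 2 arrays, each of RNA pooled from 8 CD4-Cre-Rptorfl/fl mice, in which the Cd4 promoter drives Cre throughout the T lineage, so that T cells other than Tfr cells carry the deletion too. Age and sex of the mice are not given in the labels. WT values therefore have no replicate error, while Rptor-null values are given for both pools or as mean ± SD (n = 2).

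Nucleotides are made de novo from amino acids, carbon dioxide and folate-borne carbon, or salvaged from bases and nucleosides. The purine ring is built stepwise on a ribose phosphate, and the pyrimidine ring is built first and then joined to the ribose phosphate. Ribonucleotide reductase turns ribonucleotides into the deoxynucleotides of DNA, and in cycling cells several enzymes of this branch are made mainly in S phase. In proliferating cells mTORC1 signalling is known to raise nucleotide synthesis, through phosphorylation of CAD and through ATF4 and the mitochondrial folate pathway.

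Several measures that concern the whole arrays differed between WT and Rptor-null pools. The 3' to 5' signal ratio, a measure of RNA integrity and labelling, of Gapdh was 1.11 for the WT array, 1.94 for the first Rptor-null array and 2.58 for the second, and that of the actin control was 1.40, 2.65 and 2.87. The sort genes Tnfrsf18 (GITR) and Cxcr5 were 2.54-fold and 1.83-fold lower than in WT, with limma adjusted p = 0.0017 and 0.0062. Cd4 and Il2ra (CD25) lay below WT and did not pass (adjusted p = 0.190 and 0.102), and Cd44 lay above it, at 3540, 4383 and 4306 (adjusted p = 0.0545). Of 10 genes that mark the sorted Tfr cells, 5 were lower and 0 higher, beside 11.1% and 3.93% of all genes tested. Foxp3, which defines regulatory T cells, read 752 in WT, 587 in the first Rptor-null pool and 423 in the second, and did not pass (limma adjusted p = 0.0789). The summed intensity of 14 T cell identity genes was 59507 in WT and 42227 and 41416 in Rptor-null, with 9 of 14 lower and 0 higher. That of 20 macrophage and dendritic cell markers was 38464, 52342 and 58990 (9 higher, 1 lower), and that of 8 basophil markers 1376, 2543 and 2982 (5 higher, 0 lower). Of the other marker lists, B cell genes had 0 of 8 lower and 1 higher, and NK and cytotoxic genes 1 of 11 lower and 1 higher. None of the 9 neutrophil and 5 erythroid genes tested passed by limma. At an unadjusted p under 0.05, the neutrophil genes had 3 lower and 0 higher and the erythroid genes 0 and 0. Over all genes tested the unadjusted shares were 21.7% lower and 8.11% higher. The lowest intensity of any probe set was 5.94, so a value above 0 does not show that a marker was expressed. The part of these differences in the results below was not tested, and in bulk RNA fewer cells of a type and less RNA per cell cannot be told apart. Rptor read 365, 353 and 412, and where its probe set lies relative to the floxed exons is not given in the sources used here, so this checks nothing about the deletion.

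The nucleotide synthesis genes that passed the test were all lower in the Rptor-null pools. By limma with Benjamini-Hochberg adjustment over all genes, 10 of 33 were lower (Tk1, Dut, Rrm2, Pfas, Adsl, Rrm1, Dctpp1, Gart, Prps2 and Hprt), 0 were higher and 23 did not pass the threshold of 0.05. Of all genes tested, 11.1% were lower and 3.93% higher. At an unadjusted p under 0.05 the members counted 16 lower and 1 higher, the latter being Dck, beside 21.7% and 8.11% of all genes. The share called lower rises with brightness, and the members are bright. When all genes were split by level into 5 equal bins, the brightest held 3 of 14 members lower, beside 20.9% of all genes there, a share near the background. The next bin held 4 of 10 lower beside 16.8%, the middle bin 3 of 7 beside 10.5%, and the dimmer 2 bins 1 member each, which was not lower.

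The median log2 difference of the 33 members was -0.26, and -0.27 and -0.26 in the first and second Rptor-null array alone, beside -0.059 over all genes tested. Differences are on the log2(intensity + 16) scale, so folds understate the change of dim genes. Both Rptor-null arrays lay below WT for 25 of 33 members, beside 48.7% of all genes. Both lay above WT for 3 members (Impdh1, Rrm2b and Dck), beside 32.8%, and for the other 5 (Ppat, Paics, Dctd, Cmpk1 and Tk2) the WT value lay between them. A difference of at least 1.5-fold below WT in both arrays, counted without a test, was met by 6 members, namely Tk1, Dut, Rrm2, Pfas, Adsl and Rrm1, beside 5.12% of all genes. All comparisons share the 1 WT array, which the test assumes to vary like the Rptor-null arrays. The count of 10 fell to 6 after quantile normalization, and also to 6 without a variance trend. Both settings lost Prps2, Gart, Dctpp1 and Hprt.

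**Figure D1:**
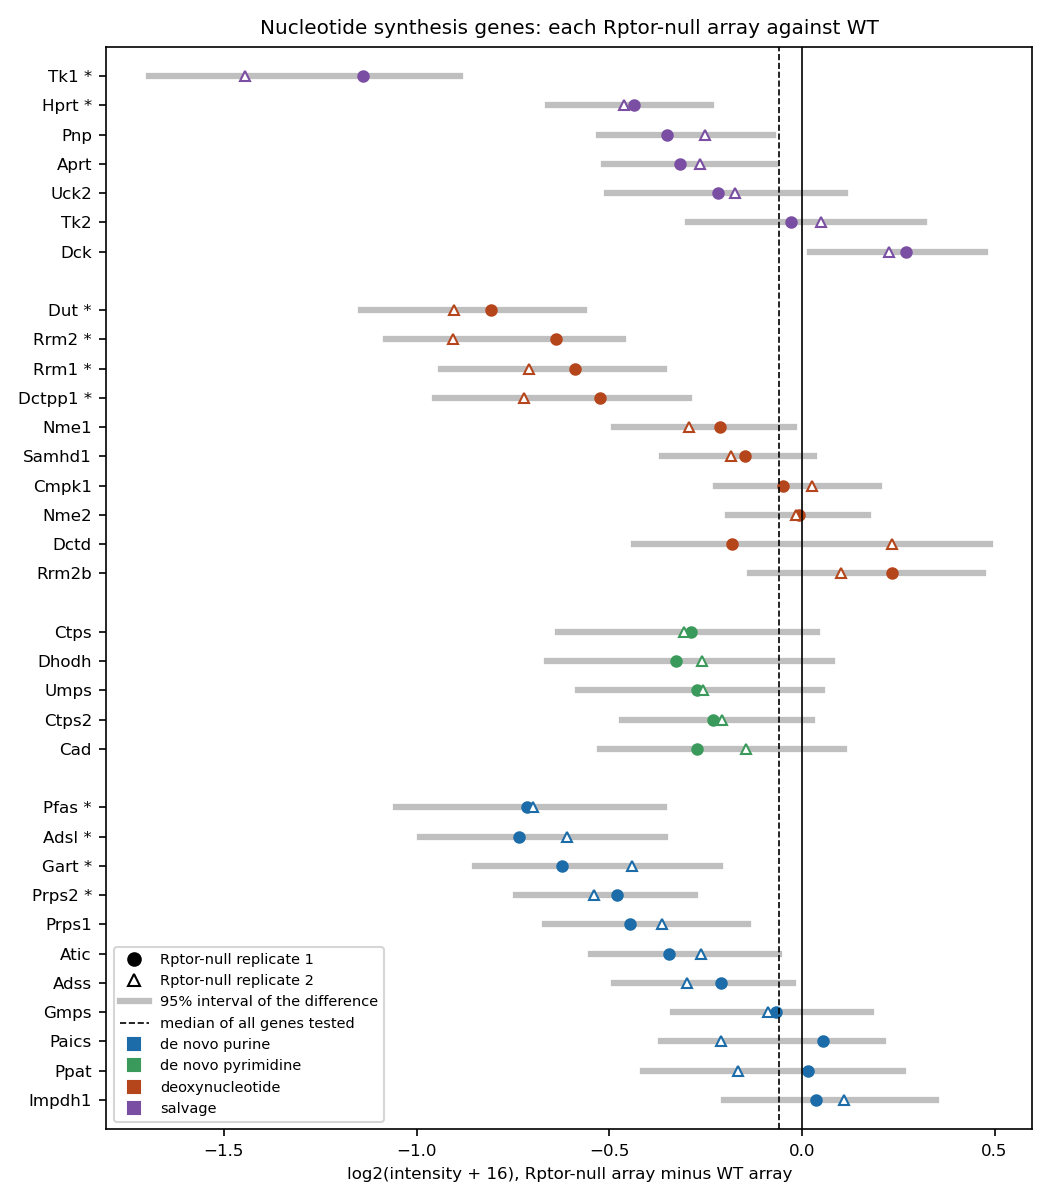
Log2 difference of each Rptor-null array from the WT array for the 33 tested genes by role group (circles replicate 1, triangles replicate 2; grey bars, 95% interval of the fitted difference; asterisks, limma adjusted p under 0.05). The dashed line is the median of all genes tested, -0.059; the 10 marked genes lie to its left in both arrays, and Tk1 lies farthest, at -1.14 and -1.44.

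Of the de novo purine genes 4 of 11 were lower and 0 higher, beside 11.1% and 3.93% of all genes tested. Their median log2 difference was -0.30. Pfas, which encodes the synthase of the fourth step of the pathway, read 264 in WT, 155 in the first Rptor-null pool and 156 in the second, 1.63-fold lower (log2 difference -0.71 ± 0.15 SE, adjusted p = 0.0214). Both Rptor-null values were nearly the same and well under the WT value. Adsl, whose lyase acts both within the chain and in the last step to AMP, read 471, 276 and 303, 1.59-fold lower (-0.67 ± 0.14, adjusted p = 0.0185). Gart, a single protein with 3 of the pathway's activities, read 547, 349 and 399, or 1.45-fold lower (-0.53 ± 0.14, adjusted p = 0.0395). Its 3 kept probe sets lay between -0.53 and -0.059, and with their mean the difference was -0.35 (adjusted p = 0.105).

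Phosphoribosyl pyrophosphate, the activated ribose that both pathways use, is made by the synthetases Prps1 and Prps2. Prps2 read 1620 in WT and 1158 and 1110 in Rptor-null, 1.42-fold lower (-0.51 ± 0.10, adjusted p = 0.0164). Prps1 read 849, 619 and 657, 1.32-fold below WT, and missed the threshold (adjusted p = 0.0519). Prps1 passed with the 60th percentile filter, after median centring and with the mean of probe sets (adjusted p = 0.0352, 0.0490 and 0.0437). It has 1 kept probe set, so in the last setting its difference stayed at -0.40 and only the fit over all genes changed. For both genes the Rptor-null arrays lay close together and below WT.

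The other purine genes did not pass the test. Atic, the bifunctional enzyme that closes the ring to IMP, read 1186 in WT and 930 and 987 in Rptor-null (-0.30 ± 0.10, adjusted p = 0.0983). Adss, adenylosuccinate synthetase on the branch to AMP, read 1697, 1464 and 1376 (-0.26, adjusted p = 0.133). On the branch to GMP, Gmps read 723, 689 and 680 (-0.077, 95% interval -0.33 to 0.18). Impdh1, whose dehydrogenase opens that branch, read 547, 561 and 591 (0.073, interval -0.20 to 0.35). The intervals of Gmps and Impdh1 thus include 0 and exclude the fitted differences of Pfas and Adsl.

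Ppat and Paics, which encode the first committed enzyme and a bifunctional enzyme of the middle of the chain, lie head to head on chromosome 5 and overlap by 277 bases at their starts (Paics 76951302 to 76967509, Ppat 76913249 to 76951578, GRCm38.p6). Paics read 2100 in WT and 2182 and 1815 in Rptor-null, and Ppat 326, 329 and 288. WT lay between the Rptor-null arrays for both genes. A second, dimmer probe set of Ppat read 108, 69.9 and 63.9 (log2 difference -0.58, adjusted p = 0.0867 over all probe sets).

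No de novo pyrimidine gene passed the test. On the probe set that stands for each, all 5 lay below WT in both Rptor-null arrays. By limma 0 of 5 were lower and 0 higher, beside 11.1% and 3.93% of all genes tested. The same counts held at an unadjusted p under 0.05, beside 21.7% and 8.11%. Over 5 genes, a count of 0 is near these shares. The 5 differences were alike in size, from -0.30 to -0.21, with a median of -0.26. Second kept probe sets lay nearer to WT, at -0.18 for Cad, -0.044 for Dhodh, -0.12 for Umps and -0.18 for Ctps2. Those of Cad (299 in WT, 228 and 302 in Rptor-null) and Dhodh (113, 94.6 and 126) had the second Rptor-null array above WT. Cad, a single protein with the first 3 activities of the pathway and a phosphorylation target downstream of mTORC1, read 387 in WT and 318 and 349 in Rptor-null (-0.21, 95% interval -0.52 to 0.11). Dhodh, the mitochondrial dehydrogenase, read 128, 99.2 and 105, and Umps, which makes UMP, 334, 274 and 277. Ctps, a CTP synthase, read 262, 212 and 209, and its paralogue Ctps2 953, 809 and 823. The 95% intervals of these 5 genes all include 0, and each also includes -0.45, the fitted difference of Hprt, so the arrays do not show that the pyrimidine genes were unaltered.

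Of the deoxynucleotide genes 4 of 10 were lower and 0 higher, beside 11.1% and 3.93% of all genes tested. Their median, -0.21, was the nearest to 0 of the 4 role groups on the probe sets that stand for the genes. That order did not hold in every setting. With the mean of probe sets the de novo pyrimidine median lay nearer to 0, at -0.19 beside -0.21. Rrm1, Rrm2, Dut and Dctpp1 were lower, while Nme1, Nme2, Cmpk1, Samhd1, Dctd and Rrm2b did not pass. Rrm1, the large subunit of ribonucleotide reductase, read 689 in WT and 453 and 416 in Rptor-null, 1.57-fold lower (-0.65 ± 0.12, adjusted p = 0.0154). Rrm2, the small subunit made in S phase, read 1564, 999 and 827, 1.71-fold lower (-0.77 ± 0.13, adjusted p = 0.0108). On every kept probe set both genes were lower in both arrays. The second Rrm1 probe set read 218, 83.4 and 79.9 (-1.26, adjusted p = 0.0170 over all probe sets), and another of Rrm2 334, 112 and 80.2 (-1.65, adjusted p = 0.0169).

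Dut, the dUTPase that keeps uracil out of DNA, read 704 in WT and 396 and 369 in Rptor-null, 1.81-fold lower (-0.85 ± 0.12, adjusted p = 0.0069). That probe set can match several transcripts, and the other, read at 59.8, 43.3 and 39.6, gave -0.40 (adjusted p = 0.135 in the fit without such probe sets). Dctpp1, a pyrophosphatase that breaks down dCTP and modified forms of it, read 514, 353 and 305, or 1.54-fold lower (-0.62 ± 0.14, adjusted p = 0.0269). Both Rptor-null arrays lay well below WT for both genes, as the plot of intensities by array shows.

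**Figure D2:**
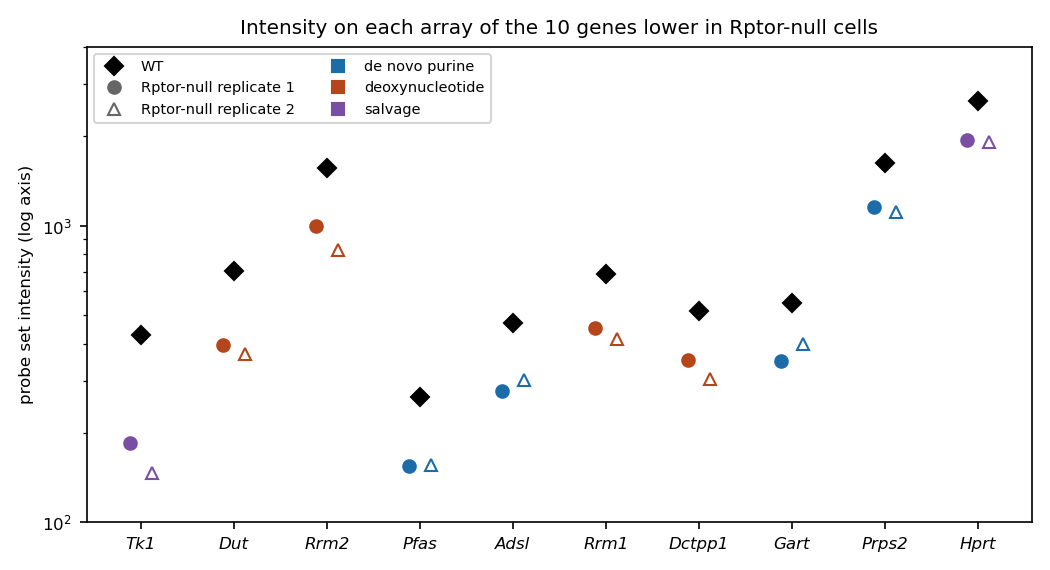
Probe set intensity (log axis) on the WT array (diamond) and on Rptor-null replicates 1 (circle) and 2 (triangle) for the 10 genes past the test, ordered from the largest fall to the smallest. Each WT point lies above both Rptor-null points, from Tk1 (427 against 185 and 147) to Hprt (2634 against 1944 and 1909).

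The other deoxynucleotide genes lay closer to WT. Samhd1, a hydrolase of deoxynucleoside triphosphates, read 3997 in WT and 3607 and 3517 in Rptor-null, and its 5 kept probe sets ranged from -0.17 to 0.35. Dctd, which deaminates dCMP, was dim, at 42.2, 35.3 and 52.4, with WT between the Rptor-null arrays. Cmpk1, the UMP and CMP kinase, read 2683, 2591 and 2732 (-0.012, 95% interval -0.22 to 0.20), and the diphosphate kinase gene Nme2 8052, 8008 and 7970 (-0.011, interval -0.19 to 0.17). For Cmpk1 and Nme2 the sign turned after median centring, to 0.041 and 0.042, and after quantile normalization, to 0.10 and 0.034.

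Salvage genes had 2 of 7 lower and 0 higher, beside 11.1% and 3.93% of all genes tested, and a median of -0.29. At an unadjusted p under 0.05 the salvage genes counted 4 lower and 1 higher, beside 21.7% and 8.11%. Tk1, the cytosolic thymidine kinase of S phase, changed most of all members, from 427 in WT to 185 and 147 in Rptor-null, 2.45-fold lower (-1.29 ± 0.17, adjusted p = 0.0054). In order of log2 difference from the lowest, Tk1 took place 26 of 12725 genes. Hprt, which salvages hypoxanthine and guanine, read 2634, 1944 and 1909, 1.36-fold lower (-0.45 ± 0.090, adjusted p = 0.0184). Aprt, the adenine counterpart, read 1868, 1497 and 1551 and missed the threshold (-0.29, adjusted p = 0.0840), but passed with the mean of its probe sets (-0.40, adjusted p = 0.0332). Pnp, which releases bases from purine nucleosides, read 2243, 1757 and 1882 (-0.30, adjusted p = 0.0792).

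Dck and Uck2, kinases of deoxycytidine and of uridine and cytidine, depended on the probe set. Dck read 1206 in WT and 1458 and 1413 in Rptor-null on the probe set that stands for it (0.25, adjusted p = 0.138), while its other 2 read 355, 241 and 272, and 131, 75.4 and 104. With the mean of the 3 its direction turned, to -0.23. Uck2 read 357, 304 and 314 on the probe set with the highest mean of log2 values (-0.20, adjusted p = 0.375). On the probe set with the highest mean of linear values Uck2 read 459, 206 and 229 (-1.03, adjusted p = 0.0064 in that setting, an alternative added after the data were seen). Its 3 further kept probe sets lay between -0.14 and 0.089, so no direction is given for Uck2.

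Disagreement between probe sets was common among the members. Of the 19 genes with more than 1 kept probe set, in 13 every kept probe set lay to one side of WT, and in 7 the probe sets spread over more than 0.5 on the log2 scale. The widest spreads were those of Uck2 (-1.03 to 0.089), Rrm2 (-1.65 to -0.77) and Dck (-0.49 to 0.25). Each probe set tested on its own, 13 of 65 were lower and 0 higher, beside 5.89% and 2.21% of all probe sets with 1 gene. Among the 10 called members, Prps2, Gart, Rrm1, Rrm2 and Dut had more than 1 kept probe set, and all of these lay below WT. Pfas, Adsl, Dctpp1, Tk1 and Hprt had only the probe set that was tested, so no agreement can be read for them.

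**Figure D3:**
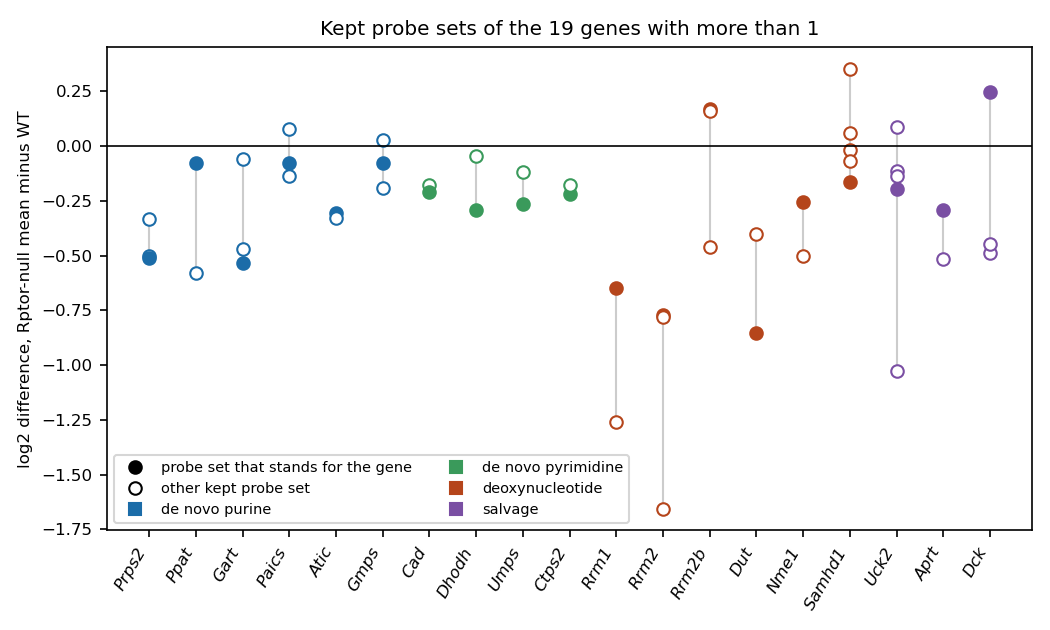
Log2 difference (Rptor-null mean minus WT) of each kept probe set for the 19 genes with more than 1; filled points stand for the gene in the test, open points are its other probe sets, and colours give the role group. All points of Rrm1, Rrm2 and Dut lie below 0, whereas those of Uck2, Dck, Rrm2b, Samhd1, Paics and Gmps lie on both sides.

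Paralogue pairs were set side by side. Prps1 and Prps2 (-0.40 and -0.51) both lay below WT, as did Ctps and Ctps2 (-0.30 and -0.22). The reductase subunit Rrm2b, the form induced by p53 and used outside S phase, read 397 in WT and 469 and 427 in Rptor-null (0.17, 95% interval -0.14 to 0.47). The interval of Rrm2, -1.08 to -0.47, does not meet that of Rrm2b. Rrm2b had 1 probe set that went the other way (-0.46), and the mean of its 3 was -0.043. Tk2, the mitochondrial thymidine kinase, read 357, 349 and 370 (0.0099, interval -0.30 to 0.32), clear of the interval of Tk1, -1.70 to -0.89. In Nme1 and Nme2, neighbours on chromosome 11 with 2668 bases between them, Nme1 read 1518, 1307 and 1236 (-0.25, adjusted p = 0.139) and Nme2 8052, 8008 and 7970 (-0.011). With the mean of its probe sets Nme1 passed the test (-0.38, adjusted p = 0.0480). The difference within each pair was not itself tested, and in close paralogues such as Nme1 and Nme2 a probe set may pick up both. The sequence identity of the pairs was not computed.

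Promoter sequences are shown for the members whose call held under every tested alternative and whose start site is in the RefSeq table used (GRCm38.p6), which are Tk1, Rrm1, Rrm2 and Adsl. Pfas, the fifth such member, is named only. Each runs 5' to 3' in the direction of the gene, from 250 bases before the start site to 50 after it, and capitals mark matches, on either strand, to the motifs searched. These were CACGTG (the E-box bound by MYC), GCGGGAA and GCGCCAAA (forms of the E2F site) and CCAAT (the NF-Y box).
Tk1, chr11:117825965-117826264, minus strand: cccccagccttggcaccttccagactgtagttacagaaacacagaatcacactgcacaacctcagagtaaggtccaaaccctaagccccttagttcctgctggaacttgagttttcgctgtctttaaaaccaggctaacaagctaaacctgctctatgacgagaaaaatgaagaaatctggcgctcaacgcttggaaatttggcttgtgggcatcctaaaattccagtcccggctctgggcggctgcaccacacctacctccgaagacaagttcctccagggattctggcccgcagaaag
Rrm1, chr7:102441445-102441744, plus strand: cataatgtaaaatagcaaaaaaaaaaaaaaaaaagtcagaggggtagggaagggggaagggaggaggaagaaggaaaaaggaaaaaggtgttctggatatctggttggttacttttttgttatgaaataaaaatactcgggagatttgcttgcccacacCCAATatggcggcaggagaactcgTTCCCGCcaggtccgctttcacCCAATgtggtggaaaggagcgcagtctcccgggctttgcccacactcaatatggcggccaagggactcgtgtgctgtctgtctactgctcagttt
Rrm2, chr12:24708004-24708303, plus strand: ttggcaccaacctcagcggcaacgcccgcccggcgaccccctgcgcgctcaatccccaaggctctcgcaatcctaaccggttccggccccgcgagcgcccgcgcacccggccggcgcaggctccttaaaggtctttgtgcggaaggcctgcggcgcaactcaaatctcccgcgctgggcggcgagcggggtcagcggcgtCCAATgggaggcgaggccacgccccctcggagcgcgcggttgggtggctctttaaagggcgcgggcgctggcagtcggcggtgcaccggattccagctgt
Adsl, chr15:80948240-80948539, plus strand: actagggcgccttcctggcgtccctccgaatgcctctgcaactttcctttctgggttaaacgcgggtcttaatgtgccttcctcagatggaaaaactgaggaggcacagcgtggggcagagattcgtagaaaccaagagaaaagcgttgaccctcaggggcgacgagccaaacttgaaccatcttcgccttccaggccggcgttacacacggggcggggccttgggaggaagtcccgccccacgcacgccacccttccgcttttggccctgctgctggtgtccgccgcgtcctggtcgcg

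The Rrm1 window held an E2F form on its minus strand, starting 67 bases before the start site, with CCAAT on both sides of it. The Rrm2 window held 1 CCAAT, 50 bases before the start, and the Tk1 and Adsl windows held none of the 4 motifs. Promoters were found for 31 of the 35 listed genes. An E2F form was in 4 of these 31 (Rrm1, Prps1, Prps2 and Ppat), or 12.9%, beside 10.2% of the 10214 tested genes with a promoter and 5.06% of all 32851 windows of that length. CACGTG was in 4 (Atic, Nme1, Paics and Tyms), also 12.9%, beside 11.3% of those genes and 7.15% of all windows. CCAAT was in 11, or 35.5%, beside 42.4% and 37.4%. CACGTG was in 0 of the 9 called members with a promoter and in 3 of the 21 that did not pass, while Tyms was not tested. With so few genes no contrast is drawn, and these matches are descriptions of the letters only.

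The genes that surround nucleotide synthesis were counted in 4 further lists, beside the background of 11.1% lower and 3.93% higher, and no difference between lists was tested. Of 19 tested genes that supply folate-borne carbon, 3 were lower and 0 higher (median -0.25; 5 lower and 1 higher at an unadjusted p under 0.05). They were Psat1 and Psph, of serine synthesis, 1.92-fold and 1.65-fold lower, and the mitochondrial folate enzyme gene Mthfd2, which read 628 in WT and 437 and 443 in Rptor-null (1.41-fold lower, adjusted p = 0.0310). Among 16 further nucleotide and nucleoside kinases 2 were lower and 0 higher (median -0.29; 6 and 1 unadjusted). Dguok, the mitochondrial deoxyguanosine kinase, was 1.70-fold lower and Dtymk, the thymidylate kinase, 1.40-fold lower.

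Genes that break nucleotides down had 4 of 19 lower and 1 higher, with a median of -0.19 (6 lower and 3 higher at an unadjusted p under 0.05). Nt5e, the ectoenzyme CD73, read 1571 in WT and 805 and 719 in Rptor-null, Itpa, which clears ITP, 325, 163 and 181, and the nucleotidase gene Nt5c3b 477, 270 and 256. The fourth was Nt5c, another nucleotidase gene, at 1210, 849 and 913. The higher gene was Gda, guanine deaminase, at 654, 989 and 1243 (adjusted p = 0.0165). Nt5c and Gda are named after their values were seen. Of 5 nucleoside transporter genes 2 were lower and 0 higher (2 and 0 unadjusted). Slc29a1, the equilibrative nucleoside transporter ENT1, was 1.69-fold lower, and Slc43a3, a transporter of purine bases, 1.57-fold lower.

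Cell cycle genes that are not members were lower on the same arrays too. Of 30 tested genes for G1/S and replication 20 were lower and 0 higher (median -0.60), and for G2/M 21 of 21 were lower (median -1.03), beside 10 of 33 members and their median of -0.26. Mki67, a marker of cycling cells, read 1632 in WT and 979 and 904 in Rptor-null. The G1/S and replication genes ranged from -1.33 to 0.21, and a link between them and the members was not tested. Atf4 was 1.36-fold lower (3780 to 2891 and 2681, adjusted p = 0.0209), and Myc read 299, 235 and 253 (adjusted p = 0.239). The medians were -0.61 for T cell identity genes and 0.49 for macrophage and dendritic cell markers, and their part in the members' differences was not tested.

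**Figure D4:**
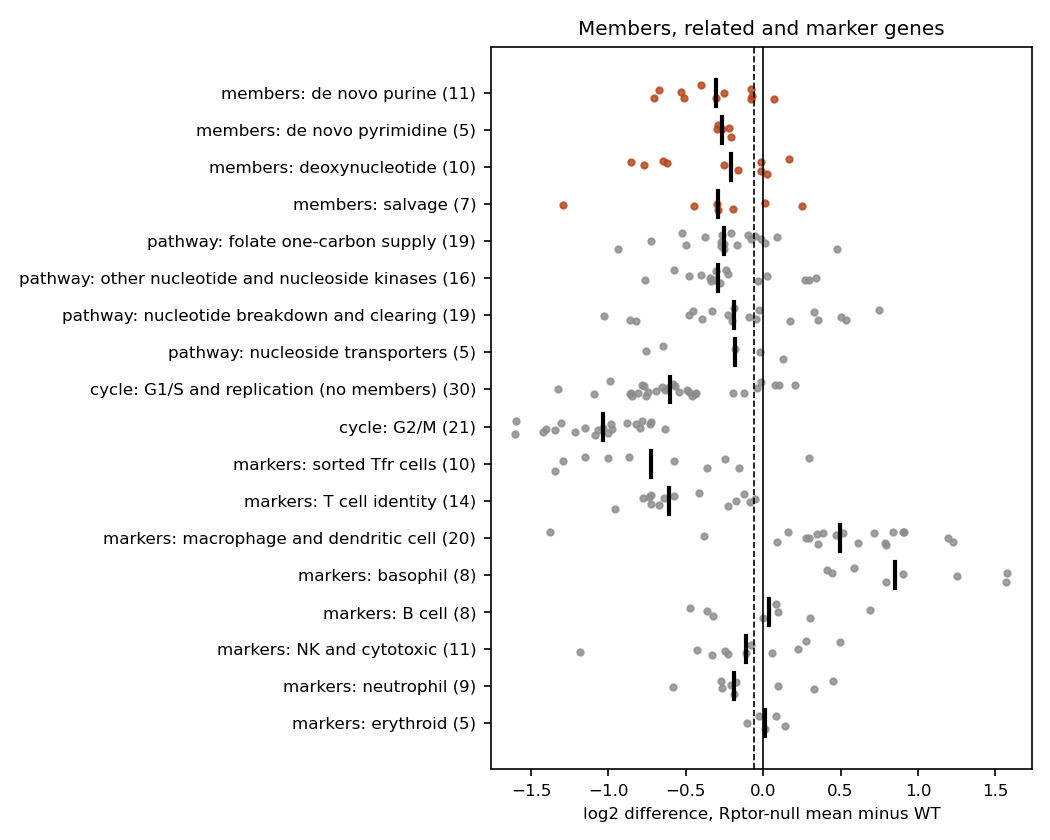
Log2 difference (Rptor-null mean minus WT) of each tested gene in the 4 role groups of members (coloured), in related pathway and cell cycle lists and in marker lists (grey), with the number of genes in brackets and a black bar at each median. The members' medians lie between -0.30 and -0.21, the cell cycle lists at -0.60 and -1.03, and the macrophage and basophil markers above 0, at 0.49 and 0.85.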

How the data were processed

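Expression was measured on 3 single-colour Affymetrix arrays, 1 WT and 2 Rptor-null, from 100 ng of total RNA each, and grouped by sample title. The deposited values are probe set intensities on a linear scale that the authors had scaled; the submitters' processing notes name MAS5 without a version, and the background correction and scaling target are not given in the sources used here. In the annotation of the platform 34945 probe sets named 1 gene, 932 several (none was named from these), 9160 none, and 64 were controls.

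Intensities were converted to log2(intensity + 16). A filter at the 40th percentile of mean level (34.8) kept 27022 probe sets, and the probe set with the highest mean log2 value stood for a gene, giving 12725 genes. Rptor-null and WT were compared in R 4.3.3 with limma 3.58.1 (lmFit, eBayes with a mean-variance trend), two-sided, with Benjamini-Hochberg adjustment and a threshold of 0.05. The 1 residual degree of freedom comes from the Rptor-null arrays (6.46 prior degrees), and the labels call these biological replicates. The number of arrays limits the precision. With 1 array against 2, no permutation test can be significant. The fit was tested on simulated data. Of the alternatives, 14 were planned and 1 (probe sets picked by linear mean) was added after seeing the data. The members, lists and tests were chosen with earlier results of these data known. Named genes were all members, genes of the sort and of mTORC1 signalling, and up to 3 per related list by the smaller of the differences in both Rptor-null arrays.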

Additional observations from a re-analysis of the deposited data

How the results depend on the processing

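Of the 10 members past the test, 5 (Pfas, Adsl, Rrm1, Rrm2 and Tk1) kept their call under every alternative with a test, and 5 lost it under at least 1. Quantile normalization and the fit without a variance trend each ended the calls of Prps2, Gart, Dctpp1 and Hprt and left 6 members lower. Gart also lost its call without the filter (adjusted p = 0.0501) and, as did Prps2 (adjusted p = 0.0559), with the mean of probe sets. Dut lost its call without cross-matching probe sets, a setting that left out every probe set with a name ending in _a_at, _s_at or _x_at. The rule goes by name alone and does not show that the Dut probe set matches another gene. With each probe set tested on its own, those standing for Gart and Dctpp1 missed the threshold (adjusted p = 0.0705 and 0.0532). Over all genes, 1409 were lower and 500 higher; quantile normalization left 782 lower and 586 higher, no variance trend 770 and 300, and median centring gave 877 higher beside 1594 lower. Members at least 1.5-fold lower numbered 6, and 3 with a pseudocount of 64, after median centring and after quantile normalization; they numbered 7 without either Rptor-null array. Leaving out an array leaves no degree of freedom, so no calls were counted there. Symbols were already matched exactly in the main fit, so the planned setting with exact matching repeats that fit and checks nothing.

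The median of all members ranged from -0.30 to -0.16: it was -0.28 with a pseudocount of 1, -0.24 with 64, -0.28 with the 60th percentile filter, -0.21 after median centring, -0.16 after quantile normalization, -0.30 with the mean of probe sets, -0.30 without cross-matching probe sets and -0.29 with probe sets picked by linear mean. De novo pyrimidine genes gave -0.28 and -0.21 with pseudocounts of 1 and 64, -0.21 after median centring, -0.16 after quantile normalization, -0.19 with the mean of probe sets, -0.21 with every probe set and -0.18 without cross-matching ones. De novo purine genes gave -0.25, -0.18 and -0.40 with median centring, quantile normalization and no cross-matching probe sets, and -0.35 to -0.30 with either Rptor-null array left out. Deoxynucleotide genes gave -0.17 without the filter, -0.25 with the 60th percentile, -0.16 and -0.11 with the same scalings, -0.25 with every probe set, -0.28 without cross-matching ones and -0.24 to -0.20 with an array left out. Salvage genes gave -0.24 and -0.18 with the scalings and -1.16 without cross-matching probe sets, a setting in which only Tk1 and Uck2 remain. The median of all genes was 0.0023 without the filter, -0.12 with the 60th percentile, -0.0063 after median centring and -0.0058 after quantile normalization.

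Direction turned only for members that did not pass the test. After quantile normalization Dctd gave -0.017, Gmps 0.049, Paics 0.032, Ppat 0.024, Nme2 0.034 and Cmpk1 0.10, and after median centring Nme2 gave 0.042 and Cmpk1 0.041. With the mean of probe sets Dck gave -0.23, Rrm2b -0.043 and Samhd1 0.031. With 1 Rptor-null array left out, Cmpk1 ranged from -0.050 to 0.026 and Dctd from -0.18 to 0.23, and without the second Paics 0.055, Ppat 0.016 and Tk2 -0.029. No paired analysis was possible because the WT group has 1 array and the labels give it no replicate number.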
